A study of Mus musculus with 4 samples.

Results

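Type I interferon response genes were followed in RNA of brain endothelial cells from mouse embryos, as a set of 32 genes named by symbol out of 17905 genes in the count tables. Members were found by an exact match of the gene symbol. Both tables list 24 of them, 1 table lists 6 and 2 have no row. The cells, labelled endothelial cell, came from brains of C57BL/6 embryos at E18, embryonic day 18. The genotypes were STINGECKO, by its name a deletion of STING in endothelial cells, and WT (wild type), with 2 libraries each: STINGECKO 1 and 2, and WT 3 and 5. Triplicates are mentioned in the design text, while the labels give 2 libraries per genotype, all of which are analysed here. No treatment is labelled. How the cells were isolated, which Cre and exons the deletion involved, and whether embryos were pooled is not given in the sources used here. Libraries of a genotype are not stated to come from separate animals, and the p-values reflect the spread between these libraries alone, which may be technical in part. The STINGECKO libraries differ in sex, as given below, and so do not come from 1 embryo.

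Type I interferons bind the receptor made of Ifnar1 and Ifnar2, whose kinases Jak1 and Tyk2 phosphorylate Stat2. With Irf9 it forms part of a complex that binds the interferon-stimulated response element in the promoters of interferon-induced genes. STING, encoded by Tmem173, detects cyclic dinucleotides made after DNA reaches the cytosol and can lead to interferon production. Many interferon-induced genes also have a basal level in cells that meet no virus.

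Many of the promoters hold a match to the interferon-stimulated response element. The genes were chosen as interferon-induced, so a high share could be foreseen from the choice and is given as a description. RefSeq promoter windows (GRCm38.p6, 250 bases before to 50 after a start site, 300 in all) were found for 22 of the 32 members. The response element core (GAAA, any 2 bases, GAAA), searched on both strands and with overlapping matches counted, was in a window of 14 of these 22 (63.6%). Among all 27025 genes with a window it was in 3.99%. The 8 members without it were Ifi44, Ifit2, Irf7, Irf9, Lgals3bp, Oasl2, Psmb8 and Xaf1, and for these the letters are only absent from the windows searched. The gamma-activated site TTCNNNGAA, a palindrome, was in windows of 5 members (Bst2, Ifit2, Ifitm3, Oas1a and Psmb8), or 22.7%, against 9.55% of all genes. In Bst2 and Ifitm3 it overlapped a match to the response element core. Matches are descriptions of sequence, not shown to be bound.

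Promoters of 5 members are shown because they hold single, paired or fused copies of the core, which is in capitals and reads TTTC, any 2 bases, TTTC where it lies on the other strand. Each stretch is the 160 bases before the start site, 5′ to 3′ on the strand of the gene (RefSeq, GRCm38.p6). They come from Isg15 (chr4:156200819-156200978, minus strand), Ifit1 (chr19:34640729-34640888, plus), Ifit3 (chr19:34583369-34583528, plus), Rsad2 (chr12:26456453-26456612, minus) and Bst2 (chr8:71537473-71537632, minus).
Isg15: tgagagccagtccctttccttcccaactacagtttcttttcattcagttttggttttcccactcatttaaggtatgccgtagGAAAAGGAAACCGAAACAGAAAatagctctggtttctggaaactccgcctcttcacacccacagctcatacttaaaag
Ifit1: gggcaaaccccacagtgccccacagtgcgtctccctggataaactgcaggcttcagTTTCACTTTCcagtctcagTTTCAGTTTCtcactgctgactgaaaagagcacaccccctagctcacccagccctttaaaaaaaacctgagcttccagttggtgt
Ifit3: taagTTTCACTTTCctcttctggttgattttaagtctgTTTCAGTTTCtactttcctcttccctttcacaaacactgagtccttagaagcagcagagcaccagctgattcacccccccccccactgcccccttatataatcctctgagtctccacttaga
Rsad2: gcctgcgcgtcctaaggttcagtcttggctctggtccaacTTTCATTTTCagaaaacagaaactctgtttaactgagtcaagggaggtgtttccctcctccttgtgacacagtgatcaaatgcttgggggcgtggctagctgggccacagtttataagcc
Bst2: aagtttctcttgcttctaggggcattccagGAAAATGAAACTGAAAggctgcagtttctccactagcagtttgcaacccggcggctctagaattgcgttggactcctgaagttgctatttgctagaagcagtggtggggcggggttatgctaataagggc

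Isg15 held 3 overlapping matches, from 78 to 57 bases before the start. Ifit1 and Ifit3 each held 2 separate matches on the other strand, starting 104 and 85 bases before the start in Ifit1 and 156 and 122 in Ifit3. Bst2 held 2 overlapping matches, while Rsad2 held 1. In 3 other members the only matches lay just after the start site. These are shown as 30 bases over the match for Ifih1 (chr2:62646206-62646235, minus strand), Ddx58 (chr4:40239804-40239833, minus) and Ifitm3 (chr7:141010714-141010743, minus).
Ifih1: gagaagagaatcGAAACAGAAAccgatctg
Ddx58: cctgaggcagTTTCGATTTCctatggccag
Ifitm3: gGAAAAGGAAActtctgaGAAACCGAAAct

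**Figure D1:**
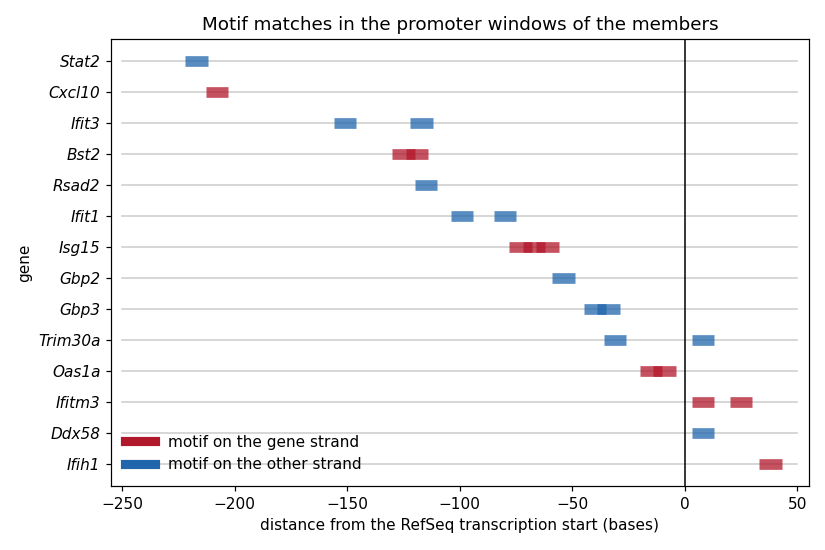
Positions of matches to the interferon-stimulated response element core in the RefSeq promoter windows of the 14 members that hold one, by distance in bases from the transcription start (vertical line). Grey lines are the windows and colours give the strand. Most matches lie before the start; the match of Trim30a after the line belongs to a window of its other start site.

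The libraries held 18610298 and 22169261 listed reads in STINGECKO 1 and 2 and 21472677 and 20591981 in WT 3 and 5. Defining endothelial markers were abundant throughout: all 12 of the fixed list had reads in every library, with a summed level of 26390 to 27780 CPM (reads scaled to library size, after TMM factors). Single endothelial markers were less level than the sum. In STINGECKO 2, Slc2a1 was lowest, at 4665 CPM, and Cldn5 highest, at 12540. Flt1, Kdr and, by little, Esam were higher in both STINGECKO libraries, Pecam1 was lower in both, and the rest overlapped. Pericyte and smooth muscle markers summed to 9203 and 9557 CPM in STINGECKO and 7483 and 6915 in WT, with Rgs5 the most abundant. Fibroblast and meninges markers summed to 277 and 286 CPM in STINGECKO and 234 and 186 in WT. Both sums were higher in both STINGECKO libraries, but single pericyte and smooth muscle markers differed. Rgs5, Kcnj8 and Anpep were higher in both, while Pdgfrb, Notch3 and Abcc9 overlapped. Cspg4 was lower in both, at 83.8 and 152 CPM in STINGECKO and 155 and 181 in WT, and so was the scarce Acta2. Microglia markers summed to 420 to 516 CPM in 3 libraries and 1014 in WT 5, and border macrophage markers to 421 to 619 CPM in 3 libraries and 1540 in WT 5. Lymphocyte and NK markers summed to at most 9.25 CPM, with Cd3d, Cd3e, Cd8a, Klrb1c and Nkg7 in neither table, and monocyte, neutrophil and dendritic cell markers to at most 34.1 CPM. Some libraries stood apart. STINGECKO 1 was from a male by 3623 reads of Ddx3y and 0 of Xist, while the others had 876 to 3374 reads of Xist. In STINGECKO 2, 13.2% of the 14100 genes in both tables had 0 reads, against 2.68% in STINGECKO 1, 5.25% in WT 3 and 2.39% in WT 5. Tmem173 itself was at 3.65 and 8.32 CPM in the libraries labelled STINGECKO and 4.48 and 6.27 in those labelled WT. It did not separate the genotypes, and directions below rest on the labels. In such bulk RNA, fewer cells of a type and less RNA per cell cannot be told apart.

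The interferon response genes of this set leaned to higher values in STINGECKO, but no member passed the genotype test. The set was chosen with earlier results of these data known, so the lean describes this list alone. Of 76 other interferon-induced genes tested, 37 were above and 39 below 0. Of the 23 members that passed the filter on low counts, 18 had a log2 fold change above 0, or 78.3%, against 48.2% of the 13365 genes tested. Their median log2 fold change was 0.45, beside -0.03 for all genes tested. After Benjamini-Hochberg adjustment over all genes, edgeR's quasi-likelihood test called 0 members and 0 genes (0% of 13365). At an unadjusted p under 0.05 it had 0 members, against 4.80% of all genes. DESeq2 called 0 members as well, beside 0.691% of all genes, and limma-voom called 0 of both. Without STINGECKO 1 the median turned to -0.33, and 11 of the 24 members then tested lay above 0. Without STINGECKO 2 the median was 0.80. Medians of all genes in these reduced fits were not taken, and STINGECKO 2 was lowest for 39.3% of all genes tested. The sign of the list's median rested on STINGECKO 1. The pericyte and fibroblast marker sums were higher in STINGECKO as well, though single pericyte markers differed in direction. The part of these cells in the lean was not tested. In simulated counts where every gene had the median spread of genes in these libraries, edgeR and limma-voom recovered none of the large changes planted. The spread differed between members, with an SE of 0.26 for Ifitm3 and 2.36 for Ifit2. The simulated outcome therefore does not carry over to each member. With 2 libraries per genotype, the absence of calls does not show that the members were equal.

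**Figure D2:**
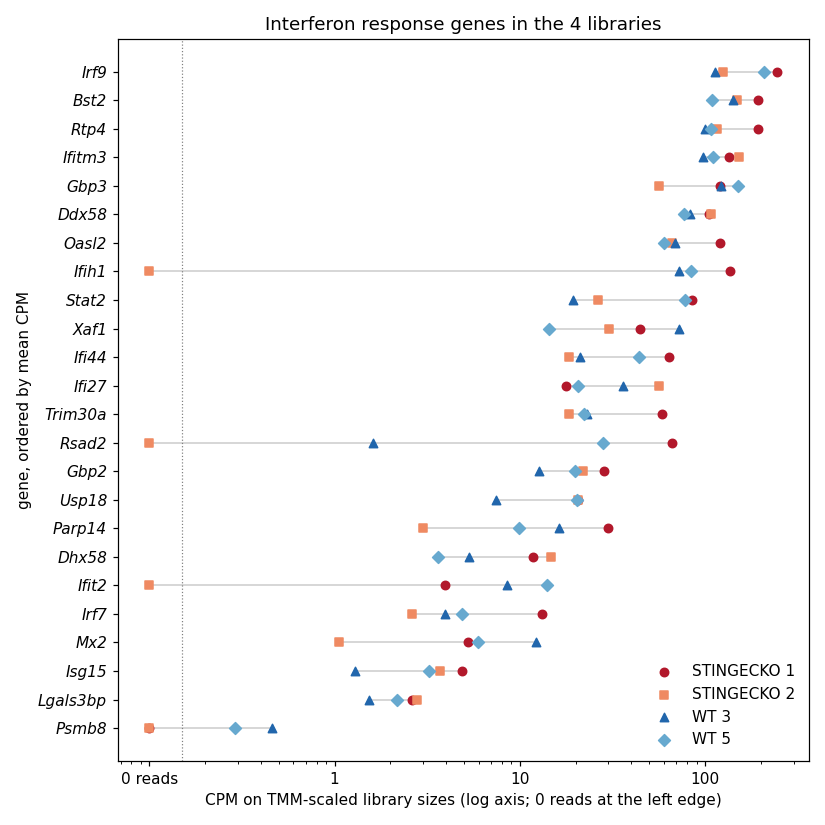
Level of the 24 members listed in both tables, in CPM on TMM-scaled library sizes (log axis), with 1 point per library and genes ordered by their mean. STINGECKO 1 (dark red circles) is the rightmost point for most genes, and STINGECKO 2 (orange squares) sits at 0 reads for Ifih1, Rsad2, Ifit2 and Psmb8.

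The members with the highest levels per length were small antiviral membrane proteins. Ifitm3, a membrane protein that blocks virus entry at endosomes (ENSMUSG00000025492, on the minus strand of chromosome 7 in GRCm38, 141009586 to 141010770), had 135 CPM in STINGECKO 1, 153 in STINGECKO 2, 97.4 in WT 3 and 110 in WT 5. Both STINGECKO libraries lay above both WT libraries. Its means were 144 ± 12.5 CPM and 104 ± 9.04 (SD, n = 2 each). The log2 fold change was 0.47 (SE 0.26, adjusted p = 1 by the edgeR quasi-likelihood test). Bst2, or tetherin, which holds budding virions at the cell surface (ENSMUSG00000046718, chromosome 8, 71534255 to 71537456, minus strand), was at 193 and 149 CPM in STINGECKO and 141 and 108 in WT, a log2 fold change of 0.45 (SE 0.28, adjusted p = 1 by edgeR). The genotypes did not overlap, though the gap between STINGECKO 2 and WT 3 was small. Per kilobase of exon the mean over the 4 libraries was 182 CPM for Ifitm3 and 164 for Bst2. The next members on that scale were Rtp4 at 60.6, Gbp3 at 34.5 and Irf9 at 31.998 CPM per kilobase, and the lowest was Psmb8 at 0.0556.

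The cluster of Ifit genes on chromosome 19 (34550694 to 34650009, GRCm38), whose products bind viral RNA and block its translation, gave a different picture in each library. Ifit2 (ENSMUSG00000045932) had 72 reads in STINGECKO 1, 0 in STINGECKO 2, 185 in WT 3 and 289 in WT 5. Its fitted log2 fold change was -2.52 (SE 2.36, adjusted p = 1 by edgeR). Ifit3 (ENSMUSG00000074896) had 93 reads in STINGECKO 1 and 50 in WT 3 and no row in the table of the other libraries, which means at most 4 reads there. Ifit1 (ENSMUSG00000034459) had 266 reads in STINGECKO 1 and 0 in WT 3, at least 105-fold higher over a floor of 3 reads, and at most 4 reads in STINGECKO 2 and WT 5. So Ifit1 had more than 4 reads in 1 library of the 4, and Ifit2 was highest in WT 5, where Ifit1 and Ifit3 were unlisted. Ifit3 has a near-identical copy, Ifit3b, and reads of the pair may be split between them.

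Rsad2, or viperin, which makes a chain-terminating nucleotide (ENSMUSG00000020641, chromosome 12, 26442746 to 26456452, minus strand), had 1222 reads in STINGECKO 1, 0 in STINGECKO 2, 35 in WT 3 and 581 in WT 5. The WT libraries alone differed 17.3-fold in CPM, and STINGECKO 1 was at least 486-fold above STINGECKO 2 over a floor of 3 reads. These bounds cover counting error alone. Mx2, a dynamin-like GTPase (ENSMUSG00000023341, chromosome 16, 97535308 to 97560900), was at 5.23 and 1.05 CPM in STINGECKO and 12.3 and 5.98 in WT. Both STINGECKO libraries were lower, with a log2 fold change of -1.54 (SE 1.42, adjusted p = 1 by edgeR). Its neighbour Mx1 (chromosome 16, 97447035 to 97462907) had 0 reads in STINGECKO 1 and 95 in WT 3, at least 26.9-fold lower, and at most 4 in the others.

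The 2′-5′ oligoadenylate synthetase family activates RNase L against viral RNA, and of its 3 genes in the set Oasl2 was the one listed in both tables. Oasl2 (ENSMUSG00000029561, chromosome 5, 114896936 to 114912234) was at 121 CPM in STINGECKO 1, 66.1 in STINGECKO 2, 69.1 in WT 3 and 59.6 in WT 5. STINGECKO 1 alone was high, and the genotypes overlapped (log2 fold change 0.54, SE 0.42, adjusted p = 1 by edgeR). Oas2 (chromosome 5, 120730333 to 120749853) had 68 reads in STINGECKO 1 and 0 in WT 3, at least 26.7-fold higher over a floor of 3 reads, and at most 4 in the others. Oas1a, and the nucleic acid sensor Zbp1, had no row in either table and so at most 4 reads in any library.

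Of the cytosolic RNA sensors, Ddx58 and Dhx58 were higher in both STINGECKO libraries, while Ifih1 had 0 reads in STINGECKO 2. Ddx58 (RIG-I, ENSMUSG00000040296, chromosome 4, 40203773 to 40239828, minus strand) was at 104 and 108 CPM in STINGECKO and 82.8 and 77.3 in WT. This was among the tightest members, and both STINGECKO libraries were higher (log2 fold change 0.41, SE 0.28, adjusted p = 1 by edgeR). Dhx58 (LGP2), which tunes both sensors (ENSMUSG00000017830, chromosome 11, 100694884 to 100704271, minus strand), was at 11.7 and 14.7 CPM against 5.32 and 3.62. Its log2 fold change of 1.56 (SE 1.06, adjusted p = 1 by edgeR) was the highest of the tested members. An antisense gene, Dhx58os, shares 141 of its exon bases, and the strand setting of the counting is not given in the sources used here.

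Ifih1 (MDA5, ENSMUSG00000026896, chromosome 2, 62595798 to 62646255, minus strand) had 2501 reads in STINGECKO 1, 1571 in WT 3, 1729 in WT 5 and 0 in STINGECKO 2. STINGECKO 2 was thus at least 608-fold below WT 5 over a floor of 3 reads. A zero at this level was rare: of 4081 genes with a mean of at least 50 CPM in the other 3 libraries, 5 (0.123%) had 0 reads in STINGECKO 2. The fitted log2 fold change, -0.20 (SE 2.19), became 0.81 without STINGECKO 2. Of the 24 members in both tables, 4 had 0 reads in that library (16.7%), near the 13.2% of all genes, and they were Ifih1, Rsad2, Ifit2 and Psmb8.

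All 3 members grouped as transcription factors and signal transducers were highest in STINGECKO 1. Irf9, which binds DNA in a complex with Stat2 (ENSMUSG00000002325, chromosome 14, 55603571 to 55610030), was at 245 and 125 CPM in STINGECKO and 113 and 207 in WT. Stat2 (ENSMUSG00000040033, chromosome 10, 128270559 to 128292849) followed the same order, at 84.7 and 26.4 CPM against 19.4 and 78.2. For both genes STINGECKO 1 and WT 5 were high and STINGECKO 2 and WT 3 low, so the genotypes overlapped. Their log2 fold changes were 0.21 (SE 0.46) and 0.19 (SE 0.88). Irf7, the factor that amplifies interferon production (ENSMUSG00000025498, chromosome 7, 141262706 to 141266481, minus strand), was at 13.1 CPM in STINGECKO 1 and 2.61, 3.93 and 4.87 in STINGECKO 2, WT 3 and WT 5, with a log2 fold change of 0.84 (SE 1.37). Irf9 shares 123 exon bases with Rnf31 on its own strand, and reads there could belong to either.

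Isg15, a ubiquitin-like protein that is attached to others (ENSMUSG00000035692, chromosome 4, 156199424 to 156200818, minus strand), had only 89 and 81 reads in STINGECKO and 28 and 67 in WT. That is 4.85, 3.70, 1.29 and 3.23 CPM, and WT 3 was low. Usp18 removes Isg15 from proteins and restrains the receptor (ENSMUSG00000030107, chromosome 6, 121245906 to 121270917). It repeated this order at 20.7, 20.7, 7.44 and 20.4 CPM, so that WT 3 alone was low and the other 3 libraries lay together. The log2 fold change was 0.92 (SE 1.41) for Isg15 and 0.57 (SE 0.86) for Usp18, and without WT 3 that of Usp18 was 0.023. Trim30a, which dampens inflammatory signalling (ENSMUSG00000030921, chromosome 7, 104409025 to 104465193, minus strand), was at 58.7 CPM in STINGECKO 1 and 18.3, 23.2 and 22.3 in STINGECKO 2, WT 3 and WT 5. One library was again high alone, and the genotypes overlapped (log2 fold change 0.76, SE 0.74). All 3 had an adjusted p of 1 by the edgeR quasi-likelihood test.

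The genes of the guanylate-binding proteins, GTPases that attack membranes around pathogens, lie near each other on chromosome 3 and differed in direction. Gbp2 (ENSMUSG00000028270, 142620602 to 142638008) was at 28.5 and 22.04 CPM in STINGECKO and 12.7 and 19.9 in WT, with a log2 fold change of 0.64 (SE 0.71). Gbp3 (ENSMUSG00000028268, 142560026 to 142573209) was at 120 and 56.6 CPM against 123 and 151, with a log2 fold change of -0.63 (SE 0.43). Neither gene overlapped between genotypes, in opposite senses, but STINGECKO 1 and WT 3 were nearly level for Gbp3. Neither passed (adjusted p = 1 each by edgeR), and reads of related Gbp genes may be shared.

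Chemokine members had few reads. Cxcl10, which attracts T cells (chromosome 5, 92346638 to 92348889), had 0 reads in STINGECKO 2 and 44 in WT 5, which with a floor of 3 reads is at least 15.5-fold lower, and at most 4 in STINGECKO 1 and WT 3. Ccl5 (chromosome 11, 83525778 to 83530518) had 9 and 3 reads in STINGECKO 2 and WT 5 and at most 4 in the others. Neither was tested.

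Among the remaining members, Rtp4, a chaperone of membrane receptors (ENSMUSG00000033355, chromosome 16, 23520291 to 23614222), was at 193 and 116 CPM in STINGECKO and 100 and 107 in WT. Both STINGECKO libraries were higher, STINGECKO 2 by little, with a log2 fold change of 0.57 (SE 0.34, adjusted p = 1 by edgeR). Rtp4 shares 296 of its 2131 exon bases with the transcript Gm45338 on its own strand, and reads there could belong to either. Ifi44 (chromosome 3, 151730922 to 151749960) was at 63.5 and 18.4 CPM against 21.1 and 43.9, and Parp14, an ADP-ribosyltransferase (chromosome 16, 35832874 to 35871544), at 30.03 and 3.02 against 16.2 and 9.89. In both genes the STINGECKO libraries were the highest and the lowest of the 4. Ifi27 (chromosome 12, 103434211 to 103440239) was at 17.7 and 56.5 CPM against 36.1 and 20.5, with STINGECKO 1 lowest, the one tested member for which this held. Xaf1, which opposes an inhibitor of apoptosis (chromosome 11, 72301629 to 72313733), was at 44.5 and 30.2 CPM against 71.8 and 14.3, so that the WT libraries were the extremes. Lgals3bp, a secreted galectin ligand (chromosome 11, 118392751 to 118402092), was low at 2.62, 2.79, 1.53 and 2.17 CPM. Psmb8, a catalytic subunit of the immunoproteasome (chromosome 17, 34197721 to 34201454), was without reads in STINGECKO and had 10 and 6 in WT 3 and WT 5. Set against 3 reads as the floor of each library, STINGECKO was at least 2.50-fold lower. It did not pass the filter, and an antisense gene shares 498 of its 3381 exon bases.

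**Figure D3:**
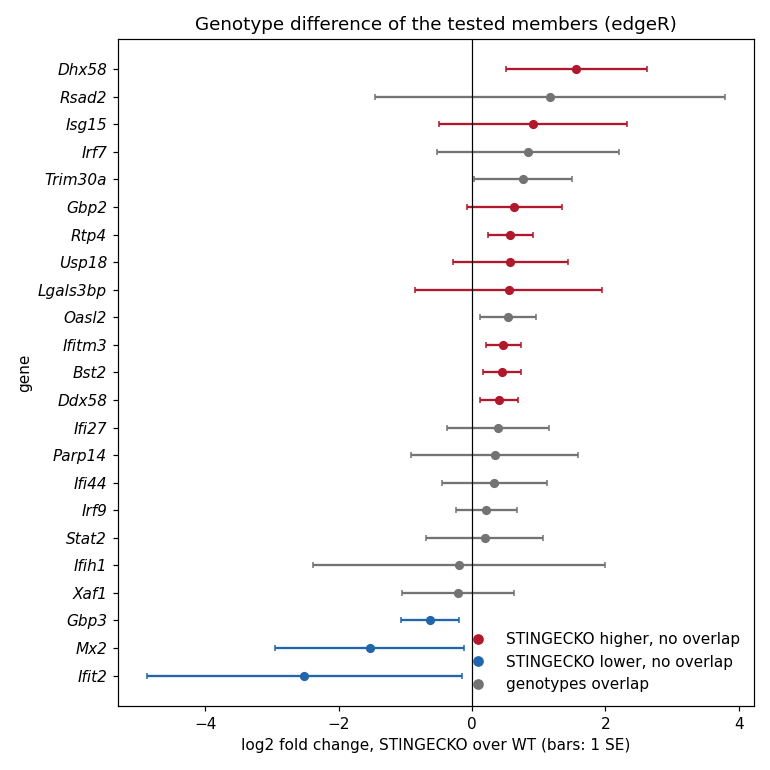
Log2 fold change of STINGECKO over WT for the 23 tested members, with bars of 1 SE, from the edgeR fit across all genes. Red and blue mark genes whose genotypes do not overlap; most points lie above 0 and none passed the adjusted test.

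The genotypes did not overlap in 12 of the 23 tested members, 9 higher and 3 lower in STINGECKO. Over all genes tested the shares were 15.4% higher, 19.0% lower and 34.4% in either direction. The 9 were Ifitm3, Bst2, Ddx58, Dhx58, Isg15, Usp18, Gbp2, Rtp4 and Lgals3bp. The 3 were Ifit2, Mx2 and Gbp3. At a mean of at least 5 CPM there were 10 of 21, beside 33.9% of all such genes. The gap was small for Usp18, from 20.4 CPM in WT 5 to 20.7 in STINGECKO 2. Isg15 went from 3.23 CPM in WT 5 to 3.70 in STINGECKO 2, and Lgals3bp from 2.17 in WT 5 to 2.62 in STINGECKO 1, both on few reads. Bst2, Gbp2 and Rtp4 were close as well, as were Mx2 and Gbp3 among those lower in STINGECKO. Each of the 12 log2 fold changes was less than 2 times its SE. The ratio of log2 fold change to SE was highest for Ifitm3, and its unadjusted p was 0.127.

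The lean of the list was largest in STINGECKO 1, though 9 tested members were higher in both STINGECKO libraries, beside 15.4% of all genes. STINGECKO 1 held the highest CPM of 14 tested members (60.9%), where 22.1% of all genes tested were highest in that library. STINGECKO 2 held the highest of 5 members, beside 29.8% of all genes. WT 3 and WT 5 held the highest of 2 each, beside 24.5% and 23.7%. The lowest value was in STINGECKO 1 for 1 member (19.9% of all genes), in STINGECKO 2 for 9 (39.3%), in WT 3 for 8 (21.1%) and in WT 5 for 5 (19.7%). Relative to each gene's own mean of log2(CPM + 1) over the libraries, the median member was at 0.53 in STINGECKO 1, -0.19 in STINGECKO 2, -0.31 in WT 3 and -0.03 in WT 5. The corresponding medians over all genes were 0.06, -0.09, 0.04 and 0.07. STINGECKO 1 is the only male library, so its sex cannot be told apart from anything else particular to that library. The part of sex in the result was not tested.

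**Figure D4:**
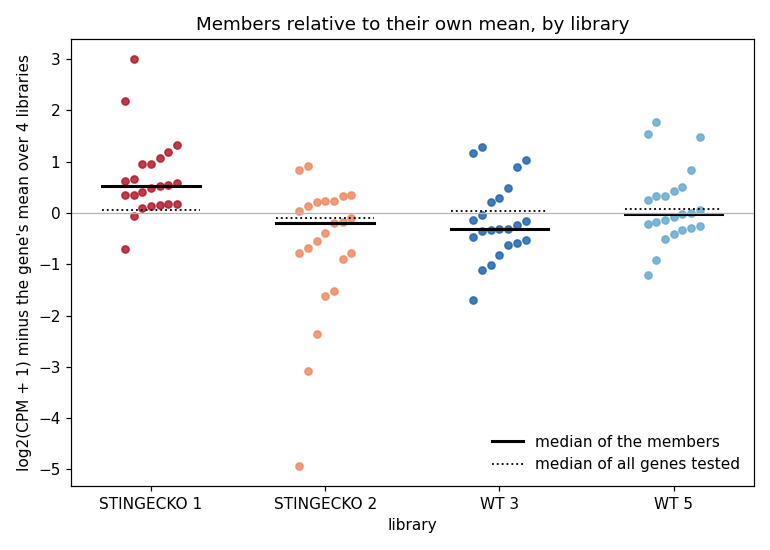
Each point is a tested member, plotted as its log2(CPM + 1) minus its mean over the 4 libraries. The solid line is the members' median and the dotted line that of all genes tested; only STINGECKO 1 has its members' median clearly above 0, at 0.53.

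Distances between libraries of one genotype lay within the range of those between genotypes, for the members as for all genes tested. The median member differed by 0.96 on the log2(CPM + 1) scale between the STINGECKO libraries and by 0.61 between the WT libraries. Across genotypes the medians were 0.99 for STINGECKO 1 with WT 3, 0.52 for STINGECKO 1 with WT 5, 0.72 for STINGECKO 2 with WT 5 and 0.64 for STINGECKO 2 with WT 3. Over all genes tested the medians were 0.73 and 0.53 within the genotypes and 0.49 to 0.79 across them. No test was made of these distances. STINGECKO 1 exceeded WT 3 in 18 of 23 members (50.6% of all genes), and STINGECKO 2 exceeded WT 5 in 12 (44.7%). Within genotypes, STINGECKO 1 exceeded STINGECKO 2 also in 18 members (54.3%), and WT 5 exceeded WT 3 in 14 (51.1%).

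The authors' deposited tables compare 1 library with 1 library, and their marks are given here as counts with no test. For STINGECKO 1 over WT 3, the authors' deposited table marked 13 of 28 listed members up (46.4%, beside 21.5% of all its genes) and 5 down (17.9%, beside 19.4%). For STINGECKO 2 over WT 5, the authors' deposited table marked 3 of 26 up (11.5%, beside 17.0%) and 10 down (38.5%, beside 35.1%). These shares of the second table were near those of all its genes. Both of the authors' deposited tables marked 8 of 24 members, beside 24.3% of all 14100 genes in both. Of the 8, 4 had one direction throughout and 4 changed it, beside 12.1% and 12.2% of all genes, so the even split is that of the background. Dhx58 was up in both, at 2.16-fold and 3.98-fold in the authors' deposited tables, and Ifit2, Mx2 and Psmb8 were down in both. Stat2 was 4.27-fold in the first and 0.331-fold in the second of the authors' deposited tables, and Rsad2, Ifi44 and Ifi27 also turned.

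Upstream of the members, no interferon was found: 0 of 11 fixed ligand genes, among them Ifnb1, Ifng and Ifna4, had a row in either table, so each had at most 4 reads in any library. The receptors were well expressed. Ifnar1 was at 259, 366.5, 267.5 and 241 CPM in STINGECKO 1, STINGECKO 2, WT 3 and WT 5, and Ifnar2 at 107, 49.1, 118 and 110 CPM. Ifnar2 was lowest in STINGECKO 2, and Ifnar1 highest there. Of 5 receptor genes tested, 0 passed, with 1 above and 4 below 0 and a median log2 fold change of -0.05. In the interferon signalling list, 0 of 18 tested genes passed, with 5 above and 13 below 0 and a median of -0.62. That median was -0.14 without STINGECKO 2 and -0.17 without WT 3. Jak1 was at 227 and 220.5 CPM in STINGECKO and 181 and 161 in WT, and Ptpn11, a phosphatase, at 122.5 and 84.5 against 145 and 156. Irf5, a factor of innate immune signalling, was at 3.00 and 6.95 CPM against 13.4 and 15.2, with no overlap. Irf2, which competes with Irf1, was at 12.8 and 22.6 CPM against 45.9 and 18.7, where the genotypes overlapped.

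Interferon-induced genes outside the set were split evenly around 0. Of 76 tested genes of this second list, 37 were above and 39 below 0, with a median log2 fold change of -0.05 and 0 past the edgeR test. STINGECKO 1 held the highest value of 20 of the 76 (26.3%), beside 22.1% of all genes. The difference between the lists was not tested. Ifi35 was at 178.5 and 188.5 CPM in STINGECKO and 81.4 and 113 in WT (log2 fold change 0.92, SE 0.28, adjusted p = 0.977 by edgeR), with both STINGECKO libraries higher. Helz2, a helicase, was at 14.7 and 23.8 against 4.90 and 3.91 CPM. In the other direction, the guanylate-binding protein Gbp5 was at 1.09 and 0.869 against 12.3 and 8.87 CPM, and the ligase Herc6 at 1.74 and 2.42 against 10.5 and 12.8. At an unadjusted p under 0.05 there were 4 genes of the 76, beside 4.80% of all genes: Ifi35, Gbp5, Epsti1 and Aim2, the last 2 named after their values were seen.

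**Figure D5:**
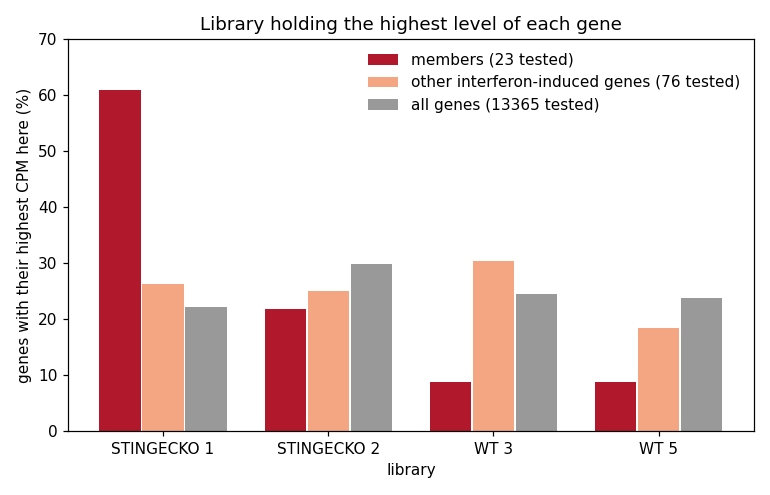
Share of genes whose highest CPM is in each library, for the 23 tested members, the 76 other interferon-induced genes and all genes tested. The members peak in STINGECKO 1, at 60.9%, while the other list is at 26.3% and all genes at 22.1% there.

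The members' values can also be set beside their promoters. Of the tested members with a match to the response element core, 8 of 10 had a log2 fold change above 0, with a median of 0.46, and 7 were highest in STINGECKO 1. Of those with a window but no match, 5 of 7 were above 0, with a median of 0.33, and 4 were highest in STINGECKO 1. The 6 tested members with no window in the table had 5 above 0 and a median of 0.48. No test was made of these small groups.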

How the data were processed

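TopHat2 2.0.12, HTSeq 0.6.0, Bowtie2 2.2.3 and the build mm9 are listed, without their roles, in the submitters' processing notes. Table positions of all 30 listed members equal those of GENCODE M21 on GRCm38, so coordinates are given on GRCm38. Per the file headers, the authors deposited a count per gene and library and a normalized value, which the values show to be CPM with 0 replaced by 0.5 read. The deposited fold change is a ratio of 2 such CPM values, and the log2 column is its log2. The deposited p-value columns compare 1 library with 1 library.

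Tables were merged by gene identifier. A table lists a gene where both libraries have reads or one has at least 5, so unlisted genes have at most 4. The 14100 genes in both tables entered edgeR 4.0.16 (R 4.3.3): filterByExpr (minimum count 10), TMM, the quasi-likelihood test, Benjamini-Hochberg adjustment over the 13365 genes left, threshold 0.05. SEs come from the log2 fold change and F. Exon lengths are unions of GENCODE M21 exons. DESeq2 1.42.0 and limma 3.58.1 (voom) were alternatives. The fits were tested on simulated data with the same spread for every gene and changes planted in well-covered genes. All planted changes were recovered at a low spread. At the median spread of genes in these libraries, edgeR and limma-voom recovered none. DESeq2 recovered only part there and also made false calls. The floor is 3 reads, for counting error only. Members and lists were chosen with earlier results of these data known. All members were accounted for; of other lists, up to 4 genes with the smallest p at a mean of at least 5 CPM were named. Promoters are from RefSeq, GRCm38.p6.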

Additional observations from a re-analysis of the deposited data

How the results depend on the processing

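Each genotype had 2 libraries, in which 1 read was 0.0451 to 0.0537 CPM, and some members rest on few reads (28 to 89 for Isg15, 33 to 61 for Lgals3bp). The count of members past the adjusted threshold was 0 in every fit run, and that of all genes 0 in all but DESeq2, which called 87. The members' median log2 fold change was 0.45 and ranged from 0.31 (limma-voom) to 0.47 under other scalings, filters, gene sets and a block by deposited table. Leaving out single libraries it ranged from -0.33 to 0.80, and the members above 0 from 11 to 19, with 23 or 24 tested. No paired analysis was possible because the genotypes share no replicate number; the deposited tables set STINGECKO 1 beside WT 3 and STINGECKO 2 beside WT 5, and a fit with the table as a block, which is not a stated pairing of animals, is given below. Of the 23 tested members, 13 kept their sign in all alternatives run: Bst2, Ddx58, Dhx58, Gbp2, Gbp3, Ifit2, Ifitm3, Isg15, Lgals3bp, Mx2, Oasl2, Rtp4 and Usp18. All of these but Oasl2 are the members whose genotypes did not overlap. Leaving out a library could hardly turn the sign of such a gene, so their count restates the lack of overlap. Of all genes tested, 34.4% did not overlap either. The size of the 13 log2 fold changes was less stable when single libraries were left out. Ddx58 (0.37 to 0.46), Dhx58 (1.32 to 1.87) and Ifitm3 (0.38 to 0.57) moved little, unlike Bst2 (0.25 to 0.66), Gbp2 (0.35 to 1.00), Gbp3 (-1.27 to -0.19), Ifit2 (-10.91 to -1.51), Isg15 (0.41 to 1.73), Lgals3bp (0.32 to 0.83), Mx2 (-3.11 to -0.79), Oasl2 (0.039 to 0.91), Rtp4 (0.16 to 0.90) and Usp18 (0.023 to 1.48). The other 10 turned when a single library was left out: Ifi27 (-0.67 to 1.00), Ifi44 (-0.82 to 0.97), Ifih1 (-13.71 to 0.81), Irf7 (-0.75 to 1.58), Irf9 (-0.35 to 0.72), Parp14 (-2.11 to 1.21), Rsad2 (-11.31 to 4.36), Stat2 (-0.88 to 1.52), Trim30a (-0.31 to 1.38) and Xaf1 (-0.94 to 1.39). Fits of genes with 0 reads in a library depend on the prior count and are no bounds. Parp14, Rsad2 and Xaf1 also turned with limma-voom (-0.56, -2.73 and 0.15) and with the block by table (-0.41, -1.50 and 0.19). Left-out libraries put the median of the signalling list at -0.67 to -0.14, of the receptor list at -0.11 to 0.032 and of the other interferon-induced genes from -0.53 to 0.053. The cause of these changes was not tested. Leaving out a library leaves its genotype with 1 sample, assumed to vary like the other genotype.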
